A study of Caenorhabditis elegans with 6 samples.

Results

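The microRNAs (miRNAs) described here are 6 of *C. elegans* that are known for roles in ageing and stress: miR-34, miR-71, miR-228, miR-239a, miR-239b and miR-246. They were chosen by name and not by a measured value. Each miRNA is cut from a hairpin precursor that has an arm on its 5′ side (5p) and an arm on its 3′ side (3p). The 6 miRNAs thus have 12 rows among the 353 rows of miRNA arms, which stand under 217 miRNA names. The arm with the larger mean level over the 4 untreated libraries is called the dominant arm, which gives 6 dominant arms.

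Small RNAs of whole adult worms, grown at 20 °C on OP50 bacteria, were sequenced in 6 libraries. The untreated libraries were 2 controls labelled pgl-1::RFP, called wild-type here, and 2 from *eggd-1* null mutants. In the mutants the whole reading frame of *eggd-1*, which encodes a LOTUS domain protein of the perinuclear germ granules, is deleted. In 1 further library of N2 worms and 1 of *eggd-1* null mutants the RNA was oxidized with sodium periodate (NaIO4) before cloning. The labels give the RFP tag on PGL-1, a germ granule protein, for the untreated controls alone, so the tag and the deletion cannot be told apart in the untreated comparison, and the oxidized control is a different strain from the untreated one. Each extraction pooled a large culture of animals, so a library is an average over many worms and over all of their tissues. The 2 libraries of a genotype are replicates in the labels. The p-values of single rows weigh a genotype difference against the spread between replicates, which the test estimates in part from all rows together.

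miRNAs are loaded on Argonaute proteins, in worms chiefly ALG-1 and ALG-2, and pair with target mRNAs through bases near their 5′ end, which lowers the translation and stability of the target. In *C. elegans* their levels and functions have been followed through adult life. Worms without *mir-71* live shorter, and *mir-71* is needed for the long life of animals that lack a germ line. Loss of *mir-246* also shortens life, whereas loss of the *mir-239* locus lengthens it. *mir-228* has been linked to life extension by dietary restriction, and *mir-34*, whose mammalian relatives act downstream of p53, to the response to radiation, to autophagy and to the insulin pathway factor DAF-16.

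The 6 hairpin genes lie at 5 separate places of the genome (coordinates of WBcel235, the assembly of the WS279 release). The *mir-34* hairpin is at chrX:2969752-2969848 on the minus strand, between genes and 1560 bp from *gbb-1*. The *mir-71* hairpin is at chrI:9379927-9380020 on the minus strand, within an intron of the protein-coding gene *ppfr-1* and on its strand. The noncoding RNA gene *F16A11.6*, on the plus strand, also overlaps this hairpin. The *mir-228* hairpin is at chrIV:5562025-5562122 on the plus strand, 3205 bp from *ari-2*, and the *mir-246* hairpin at chrIV:10940134-10940230 on the plus strand, 200 bp from *fic-1*. The hairpins of miR-239a (chrX:11792445-11792542, plus strand) and miR-239b (chrX:11791302-11791399, minus strand) lie 1046 bp apart on opposite strands. No member arm overlaps a coding exon. The mature arms are 21 to 23 bases long, so that levels of different arms are set side by side without a correction for length.

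Levels are given in RPM as deposited, reads scaled to the depth of genome-mapped reads. The libraries had 19457486 to 31245662 genome-mapped reads. The deposited values of miRNA arms rose in steps of 0.5 counts. This is read here as each read being shared between the row of the arm and the row of its hairpin. An RPM value of an arm thus stands for about 1 read in every 2. One further property bears on all genotype differences. With genome-mapped reads as the library size, the median of all 218 miRNA rows tested was 0.34 higher in *eggd-1* on the log2 scale, whereas with TMM factors, which centre the bulk of the miRNAs, it was -0.07. The log2 fold changes of the dominant arms are therefore also given relative to the median miRNA row.

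In wild-type worms the members spanned a wide range of levels, and miR-71-5p led them by far. miR-71-5p, at 12905 and 10817 RPM in the controls, ranked number 2 of all miRNA rows by mean untreated level. It alone made up 85.4% to 89.0% of the 6 dominant arms in the untreated libraries. miR-239a-5p followed at 1027 and 1165 RPM and miR-246-3p at 279 and 235 RPM, with no overlap between these neighbours. miR-228-5p (151 and 118 RPM) and miR-34-5p (137 and 83.7 RPM) overlapped, and their order differed in *eggd-1*, so the libraries did not separate these 2. miR-239b-5p was the scarcest at 5.77 and 6.58 RPM, although its hairpin is the neighbour of *mir-239a*.

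**Figure D1:**
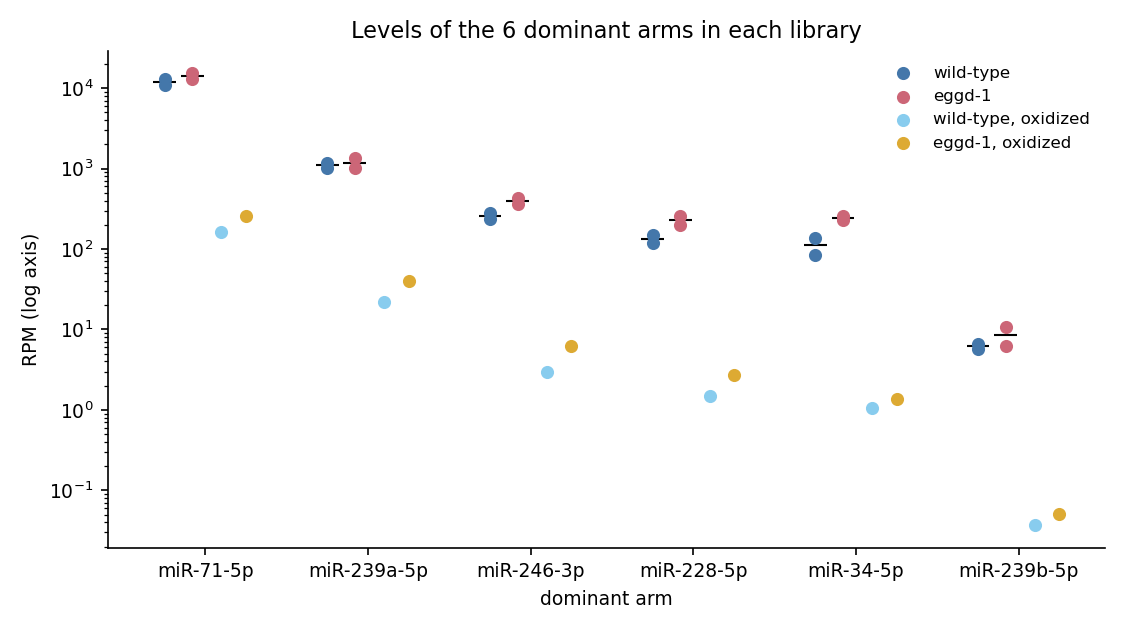
Level of each dominant arm in RPM (log axis) in the 6 libraries; points are libraries and black lines are the means of 2 libraries. miR-71-5p lies above all other members in each group, and the oxidized libraries lie below the untreated ones for all 6 arms.

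The comparison of *eggd-1* with wild-type asks how these miRNAs stand in animals without EGGD-1, a protein that keeps germ granules at the nuclear envelope. Of the 6 dominant arms, 3 were called higher in *eggd-1* (miR-34-5p, miR-228-5p and miR-246-3p) and 0 lower, by edgeR's quasi-likelihood test at a Benjamini-Hochberg adjusted p below 0.05 over all tested rows. A call of higher was common among miRNAs: 36.3% of the 146 dominant arms tested were called higher and 8.22% lower, so 3 of 6 is near the background. Over both arms, 5 of the 11 member rows that passed the filter on low counts were called higher, against 34.4% of 218 rows called higher and 8.72% lower. The split of the calls depended on the scaling, with 75 rows higher and 19 lower (79.8% of calls higher) against 23 higher (10.6% of rows) and 39 lower (17.9%) under TMM, where 37.1% of calls were higher, and the dominant arms called higher then fell to 1, miR-34-5p. In these whole-animal libraries, fewer cells of a type and less RNA per cell cannot be told apart.

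miR-34-5p moved most among the dominant arms. It was at 137 and 83.7 RPM in wild-type and at 258 and 229 RPM in *eggd-1*. Both mutant libraries lay above both controls, and the controls differed from each other more than the mutants did. The wild-type mean was 111 ± 38.1 RPM and the mutant mean 243 ± 20.0 RPM (SD, n = 2 each), 2.20 times as high. The log2 fold change was 1.14 ± 0.23 (SE), with an edgeR adjusted p of 2.64e-05, and 0.80 above the median miRNA row. The call held in 14 of 15 alternative settings. It was lost without the second wild-type library, the one with the low value, where the log2 fold change was 0.82 and the edgeR adjusted p 0.114.

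miR-228-5p and miR-246-3p rose by smaller amounts. miR-228-5p was at 151 and 118 RPM in wild-type and at 257 and 198 RPM in *eggd-1*, with a log2 fold change of 0.76 ± 0.23 (SE; edgeR adjusted p = 0.00399). miR-246-3p was at 279 and 235 RPM in wild-type and at 364 and 434 RPM in *eggd-1*, with a log2 fold change of 0.63 ± 0.21 (SE; edgeR adjusted p = 0.00952). The groups did not overlap for either arm, as for 53.2% of all tested rows, in which both *eggd-1* libraries lay above both wild-type libraries, while 16.1% had both below. Relative to the median miRNA row the log2 differences were 0.42 and 0.29. Under TMM the log2 fold changes were 0.33 for miR-228-5p (edgeR adjusted p = 0.153) and 0.23 for miR-246-3p (edgeR adjusted p = 0.314), and neither was called. Leaving out 1 library ended the call of miR-228-5p for either wild-type library or the first *eggd-1* library, with a log2 fold change of 0.95, 0.59 and 0.56 in turn, and that of miR-246-3p for either wild-type library or the second *eggd-1* library (0.76, 0.52 and 0.50).

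miR-71-5p, the most abundant member, was not called. Its levels were 12905 and 10817 RPM in wild-type and 13004 and 15228 RPM in *eggd-1*. The higher control and the lower mutant library were nearly level, so the groups were separate by a small margin. The log2 fold change was 0.25 ± 0.15 (SE; edgeR adjusted p = 0.170), which is -0.09 relative to the median miRNA row. Its direction turned with the scaling, to -0.15 under TMM and -0.047 in DESeq2. The test over these libraries thus gave no call for miR-71-5p under any of the 15 alternatives.

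The neighbours miR-239a and miR-239b were not called either, and for both the groups overlapped. miR-239a-5p was at 1027 and 1165 RPM in wild-type and at 1336 and 1027 RPM in *eggd-1*. Its log2 fold change was 0.11 ± 0.19 (SE; edgeR adjusted p = 0.667), which is -0.23 relative to the median miRNA row, and it was -0.32 under TMM and -0.22 in DESeq2. miR-239b-5p was at 5.77 and 6.58 RPM in wild-type and at 10.8 and 6.23 RPM in *eggd-1*, and only the first *eggd-1* library stood above the rest. Its log2 fold change was 0.46 ± 0.25 (SE; edgeR adjusted p = 0.135), 0.12 above the median miRNA row, and without the second *eggd-1* library it was 0.80 and called (edgeR adjusted p = 0.00796). In level, miR-239a-5p stood 178 and 177 times above miR-239b-5p in the 2 wild-type libraries, and 124 and 165 times in the *eggd-1* libraries.

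Summed over the 6 dominant arms, wild-type stood at 13466 ± 1470 RPM and *eggd-1* at 16176 ± 1340 RPM (SD, n = 2 each). The ratio was 1.20 ± 0.165, with an exact two-sided permutation p of 0.333, the smallest that 2 against 2 libraries can give. Without miR-71-5p the other 5 arms summed to 1604 ± 5.95 RPM and 2060 ± 233 RPM, a ratio of 1.28 ± 0.146. The ratio of all miRNA rows together was 1.06 ± 0.0509. With TMM factors the ratio of the 6 arms was 0.908.

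**Figure D2:**
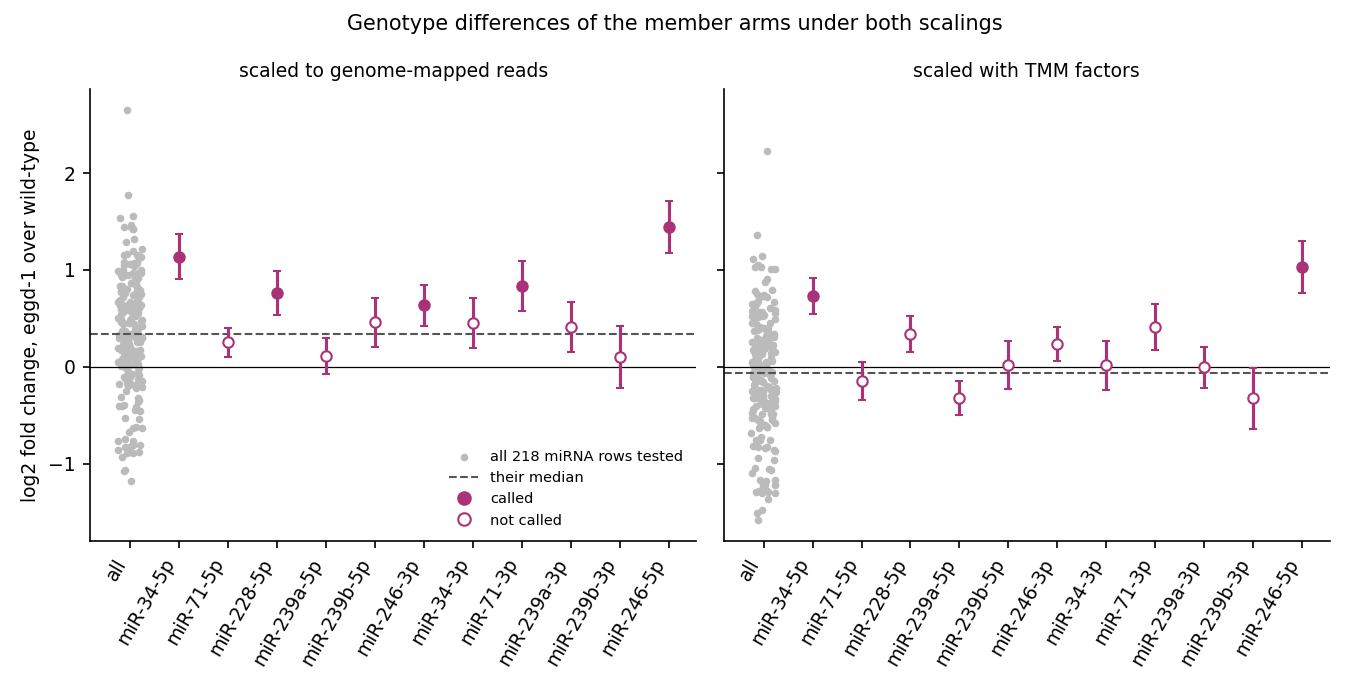
Log2 fold changes of the 11 tested member rows (error bars are SE; filled points are called) beside all 218 tested miRNA rows in grey, scaled to genome-mapped reads (left) and with TMM factors (right). The dashed median moves from 0.34 to -0.07 between the panels, and miR-34-5p and miR-246-5p are called in both.

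The minor arms, which are usually degraded when the duplex is loaded, gave a second reading of each locus. The largest fitted change of any member row was in miR-246-5p, the minor arm of miR-246. It was at 1.37 and 1.09 RPM in wild-type and at 3.18 and 3.41 RPM in *eggd-1*. The log2 fold change was 1.44 ± 0.27 (SE; edgeR adjusted p = 5.51e-06), which was 1.10 above the median miRNA row, and it was called in all 14 alternative settings. miR-71-3p also rose, from 7.72 ± 0.349 RPM to 13.8 ± 2.48 RPM (SD, n = 2 each) with no overlap between the groups. Its log2 fold change was 0.84 ± 0.26 (SE, edgeR adjusted p = 0.00481). It was not called under TMM (0.41), in DESeq2 (0.51), with a 2-fold minimum or without either wild-type library (0.88 and 0.79). The other minor arms did not pass: miR-239a-3p had a log2 fold change of 0.41 (edgeR adjusted p = 0.193), miR-34-3p of 0.45 (0.142) and miR-239b-3p of 0.10 (0.834). Under TMM their values were -0.0075, 0.014 and -0.32 in turn, and none was called. miR-228-3p, at 3 to 8.5 counts a library, was below the filter.

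The share of the minor arm within a miRNA is free of the library size. It was 0.474% ± 0.0191 in wild-type and 0.823% ± 0.0603 in *eggd-1* (SD, n = 2 each) for miR-246, and 0.0654% ± 0.00519 against 0.0990% ± 0.0286 for miR-71. For miR-239a it was 3.48% ± 0.402 against 4.29% ± 0.643. The share moved the other way for miR-34, from 3.65% ± 1.02 to 2.17% ± 0.734, and for miR-239b, from 10.3% ± 0.795 to 8.47% ± 0.398. Among the 5 members with both arms at a mean of 10 counts, 3 thus had both mutant libraries above both controls and 2 had both below, against 33.3% and 18.8% of the 69 such miRNAs. The shares of miR-228 overlapped between the groups.

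Periodate oxidation asked which small RNAs carry a methyl group at their 3′ end. HENN-1 adds this group to piRNAs, which can still be ligated and sequenced after periodate treatment, while RNAs with an unprotected end are lost from the library. Worm miRNAs are not known to carry this methyl group. The piRNAs made up 5.83% to 6.99% of genome-mapped reads in untreated libraries and 86.1% and 86.4% in the oxidized wild-type and *eggd-1* libraries. With 1 oxidized library a genotype there is no replicate of oxidation and no test of it. The wild-type ratios of oxidized to untreated levels set N2 worms against the pgl-1::RFP controls, so strain and oxidation cannot be told apart in them. Intervals below are exact Poisson 95% intervals on the reads left and cover counting error only.

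All 6 dominant arms nearly vanished on oxidation. Together they were at 189 RPM in the oxidized wild-type library and at 309 RPM in the oxidized *eggd-1* library, which is 1.40% ± 0.153 and 1.91% ± 0.158 of the untreated mean (SD from the 2 untreated libraries). The whole miRNA class was left at 1.12% and 1.58%. The median over dominant arms with mean untreated counts of 50 or more was 0.873% (118 arms) and 1.22% (122 arms). The members thus followed the loss of the class, and they still held 10.3% and 11.2% of the miRNA level after oxidation, against 7.38% to 10.1% in the untreated libraries.

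Among the 5 dominant arms with more than 2 reads left, miR-239a-5p kept the largest share in both genotypes, and miR-34-5p kept the smallest in *eggd-1*. miR-239a-5p fell from a mean of 1096 RPM to 22.2 RPM in wild-type, with 2.03% left (1.92% to 2.15%), and from 1181 RPM to 39.6 RPM in *eggd-1*, with 3.35% left (3.19% to 3.52%). It ranked number 22 of 118 and number 25 of 122 dominant arms by the share left. miR-71-5p kept 1.36% (1.33% to 1.39%) and 1.83% (1.80% to 1.87%), and miR-246-3p 1.15% (0.977% to 1.34%) and 1.58% (1.39% to 1.79%). miR-228-5p kept 1.10% (0.870% to 1.36%) and 1.19% (0.970% to 1.44%), so that these 3 were near the class. miR-34-5p kept 0.951% (0.720% to 1.23%) in wild-type, an interval that overlaps that of miR-228-5p, but 0.560% (0.419% to 0.732%) in *eggd-1*, where it ranked number 109 of 122. The spread of the untreated libraries, which these intervals leave out, was wide for this arm in wild-type. There the SD was 0.327, against 0.0459 in *eggd-1*, and the share ranged from 0.765% to 1.26% with a library left out. miR-239b-5p had 2 reads in each oxidized library, too few to place it.

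The 2 oxidized libraries can also be set side by side, each a single library. The 5 dominant arms with more than 2 reads were all higher in the oxidized *eggd-1* library, as was the whole miRNA class (1.50 times). miR-34-5p, which had the largest genotype difference among dominant arms in untreated RNA, had a ratio of only 1.30 (1.05 and 1.36 RPM). The ratio was 1.61 for miR-71-5p, 1.78 for miR-239a-5p, 1.83 for miR-228-5p and 2.13 for miR-246-3p. miR-239b-3p had no read in either oxidized library, where 3 reads would be 0.0553 and 0.0771 RPM.

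**Figure D3:**
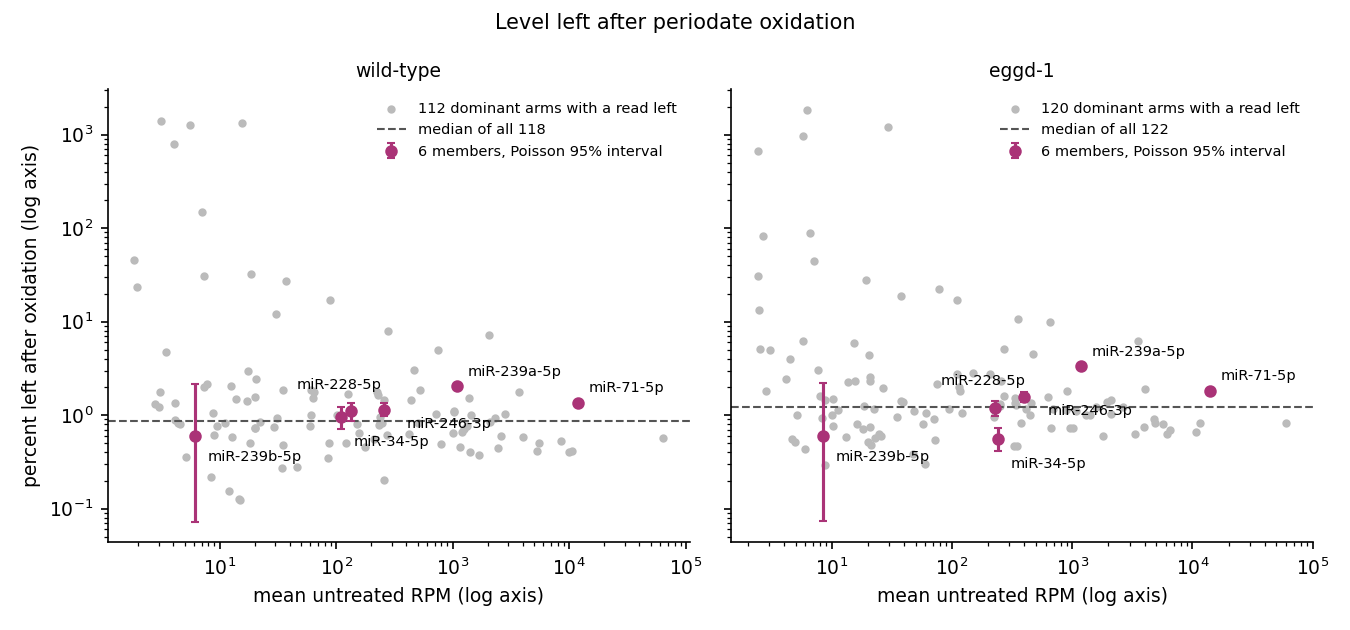
Percent of the untreated mean level left after oxidation (log axis) against the mean untreated RPM (log axis) for dominant arms with a mean of at least 50 counts, in wild-type (left) and *eggd-1* (right); members are in colour with exact Poisson 95% intervals and the dashed line is the median, 0.873% and 1.22%. miR-239a-5p lies above the other members in both panels, and a few scarce entries, 5 and 4, lie above 100%.

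The rows of the hairpins held a further signal at *mir-239a*. Subtracting both arms from a hairpin's row leaves the reads counted for the hairpin but for neither arm, called reads outside the arms here. A read that overlaps an arm without being counted for it would be among them. These counts were whole numbers in all libraries (within 1e-06) for 203 of 217 hairpin entries, the 6 members included. In untreated libraries such reads of the miR-239a hairpin stood at 31.7 and 29.3 RPM in wild-type and at 47.2 and 41.1 RPM in *eggd-1*, which is 2.38% to 3.67% of the hairpin row. After oxidation they stood at 58.7 RPM in wild-type and at 114 RPM in *eggd-1* (1590 and 2211 counts), 72.2% and 73.8% of the row. If arm reads are shared between arm row and hairpin row, they enter the hairpin row with only part of their weight. Reads outside the arms enter it whole. All these percentages are thus shares of the row, and the shares of reads would be lower. The reads outside the arms were 1.92 and 2.57 times the untreated mean. In contrast, miR-239a-3p fell from 39.4 to 0.369 RPM in wild-type and from 52.2 to 0.668 RPM in *eggd-1*. In RPM the reads outside the arms thus took the opposite course to both arms of the same hairpin. RPM is a share of a library, so a rise after oxidation does not by itself mean a gain of these RNAs. piRNAs as a class rose more, 14.5 and 12.8 times, on the same RPM scale.

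No other member showed this. The hairpins of miR-34 and miR-246 had 0 counts outside the arms in both oxidized libraries, that of miR-71 had 8 and 2, that of miR-228 had 4 and 0, and that of miR-239b had 0 and 1. In both oxidized libraries the miR-239a hairpin had the most counts outside its arms of all 217 hairpin entries on the RPM scale. Of the 60 hairpins with at least 1 RPM outside the arms in both untreated groups, 6 were higher after oxidation in both genotypes: miR-61, miR-73, miR-78, miR-238, miR-239a and miR-8198. The arms of miR-8198 stand under different names and its hairpin is entered for each name. Not all of its arm reads were therefore subtracted, and its value is not one of reads outside both arms. From lower untreated levels, the reads of miR-238 rose more than those of miR-239a, 3.31 and 5.22 times. The median of the 60 was left at 0.0236 and 0.0214 times its untreated level. The annotation holds no other gene over the miR-239a hairpin. The position and length of these reads within the hairpin were not analysed here.

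**Figure D4:**
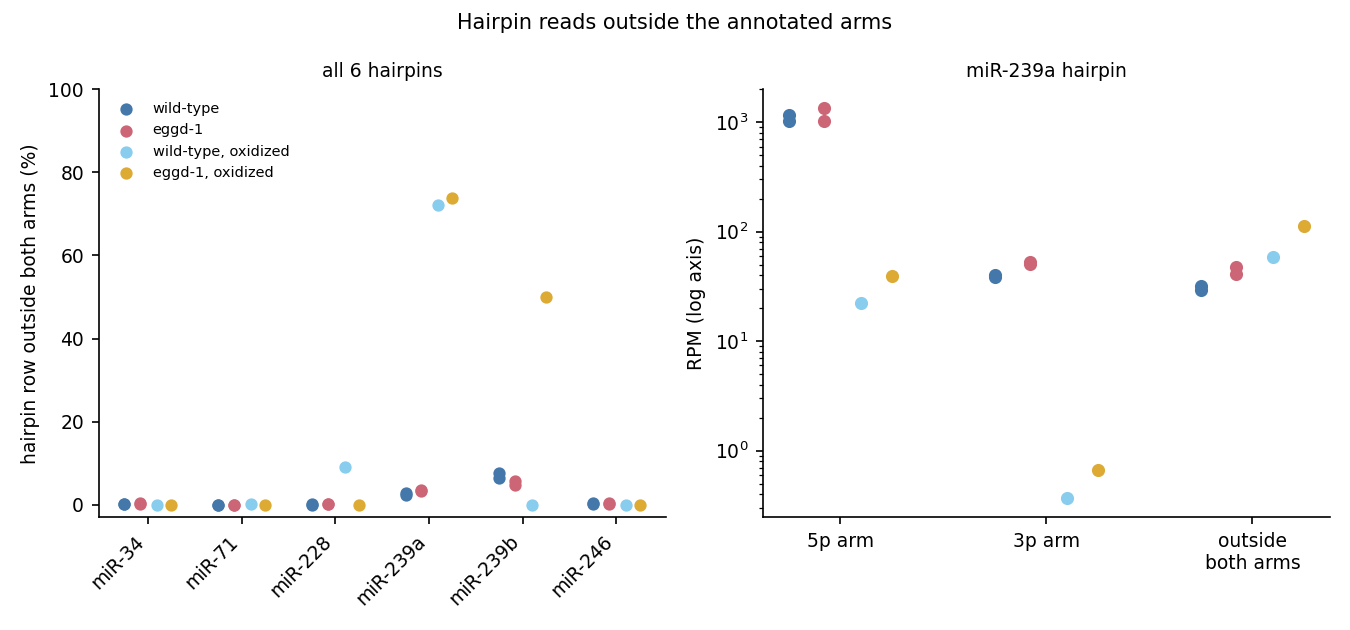
Left, percent of each hairpin row that lies outside both arms, by library; right, RPM (log axis) of the 5p arm, the 3p arm and the rest of the miR-239a hairpin. For miR-239a the part outside the arms is 72.2% and 73.8% of the row after oxidation, while both arms drop. The point at 50.0% for miR-239b is 1 of 2 counts and that at 9.09% for miR-228 is 4 of 44. Arm reads are taken to be shared between arm row and hairpin row, so the percentages are not shares of reads. The RPM of an arm likewise holds only part of each read.

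Marker miRNAs and small RNA classes of other tissues also differed between the genotypes. The miRNAs miR-35 to miR-42, abundant in the germ line and early embryo, were called lower in *eggd-1* for 8 of 8. Of the 146 dominant arms tested, 8.22% were called lower, a share that includes these 8. The 8 arms are not taken as independent of one another. Their median log2 fold change was -0.72. They summed to 19155 and 16582 RPM in wild-type against 10528 and 10782 RPM in *eggd-1*. miR-1-3p of muscle was higher (0.45 ± 0.15 SE; edgeR adjusted p = 0.0112), and so was lsy-6-3p of a sensory neuron (0.95 ± 0.26 SE; edgeR adjusted p = 0.00151), but under TMM neither was called, at 0.04 (edgeR adjusted p = 0.902) and 0.52 (edgeR adjusted p = 0.0927). miR-124-3p, another neuronal miRNA, was not called (0.30; edgeR adjusted p = 0.343), and its value under TMM was -0.15. miR-60-3p of the intestine was not called either (-0.14; edgeR adjusted p = 0.640), but it was lower under TMM (-0.56; edgeR adjusted p = 0.0109). The spermatogenesis classes were higher in the mutant, with 324 and 351 RPM of ALG-3/4 26G-RNAs in wild-type and 1180 and 1048 RPM in *eggd-1*, and with 6096 and 6192 against 12371 and 12736 RPM of spermatogenic piRNAs. The part of these tissue differences in the levels of the 6 members was not tested.

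Further miRNAs linked to ageing or stress were given the same test. Of these 11, 1 was called higher, 0 lower and 10 neither, against 36.3% higher and 8.22% lower of all dominant arms tested, and their median log2 fold change was 0.16, below the 0.34 of all rows. The one called was lin-4-5p, the heterochronic miRNA that targets *lin-14*, at 263 and 216 RPM in wild-type and at 451 and 301 RPM in *eggd-1* (log2 fold change 0.65 ± 0.21 SE; edgeR adjusted p = 0.00820), and under TMM it was not called (0.22; edgeR adjusted p = 0.360). let-7-5p, which acts later in the same timing pathway, had a log2 fold change of 0.34 (edgeR adjusted p = 0.104) and of -0.07 under TMM. miR-238-3p, whose loss shortens life like that of *mir-246*, had one of -0.18 (edgeR adjusted p = 0.469), and under TMM it was lower (-0.61; edgeR adjusted p = 0.00274). The values of the others were 0.06 for miR-66-5p, 0.09 for miR-80-3p, 0.12 for miR-65-5p, 0.16 for miR-64-5p, 0.19 for miR-229-5p and 0.50 for miR-83-3p, and under TMM all of these except miR-83-3p were below 0, none of them called. After oxidation miR-238-3p kept 5.02% and 9.90% of its level, more than any of the 6 members.

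By profile over the 4 untreated libraries (Euclidean distance of log2 RPM centred on its mean, with 118 dominant arms compared), the members did not resemble one another most. miR-233-3p was nearest to miR-34-5p (distance 0.184), then miR-795-5p (0.320). miR-50-5p (0.111) and miR-799-3p (0.147) were nearest to miR-246-3p, and miR-790-5p (0.164) and miR-232-3p (0.193) to miR-228-5p. miR-5551-5p (0.152) and miR-45-5p (0.158) were nearest to miR-71-5p. miR-236-3p (0.0383) and miR-79-3p (0.0907) were nearest to miR-239a-5p, and miR-124-3p (0.257) and miR-235-3p (0.271) to miR-239b-5p. miR-239a-5p was number 18 in order of likeness to miR-239b-5p.

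In the same libraries, 22G-RNAs report on a different layer: these short siRNAs, made antisense to mRNAs chiefly in the germ line, mark which genes are templates for RNA-dependent RNA polymerases. Among 35 ageing and stress genes, 30 passed the filter on low counts. Their 22G-RNAs were lower in *eggd-1* for 11 genes, higher for 8 and not called for 11, against 40.8% lower and 21.7% higher of 11741 genes, and the median log2 fold change was -0.14 against -0.18 over all genes. Under TMM the list had 9 lower and 10 higher, and all genes had 31.7% lower and 29.4% higher. The list thus stood near the background.

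Of the genes called lower, *unc-31*, which is needed for dense-core vesicle release in neurons, fell most, from 7.84 and 7.36 RPM to 1.60 and 1.43 RPM (log2 fold change -2.32 ± 0.17 SE; edgeR adjusted p = 4.81e-13). *hlh-30*, the TFEB homologue that drives autophagy genes, fell from 31.1 and 28.5 RPM to 15.5 and 16.8 RPM (-0.88 ± 0.08 SE; edgeR adjusted p = 1.61e-10). *daf-16*, the FOXO factor of insulin signalling, fell by 0.61 on the log2 scale, and *nhr-49*, a nuclear receptor of fat metabolism, by 0.53. Of those called higher, *skn-1*, the NRF-like factor of the oxidative stress response, rose most, from 55.1 and 53.2 RPM to 112 and 126 RPM (1.13 ± 0.07 SE; edgeR adjusted p = 1.68e-14). The p38 kinase pathway genes *sek-1* and *pmk-1* rose by 1.04 and 0.93 on the log2 scale from low levels, at most 3.12 RPM in wild-type. The heat shock factor gene *hsf-1* rose by 0.71 and the insulin receptor gene *daf-2* by 0.44.

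Of the genes listed for the miRNA pathway, 13 of 13 were tested. Among them is *henn-1*, whose methyl group worm miRNAs are not known to carry. The 22G-RNAs of the 13 genes were lower in *eggd-1* for 9, higher for 3 and not called for *ain-2*. Over all genes, 40.8% were lower and 21.7% higher. Under TMM there were 6 lower and 4 higher, against 31.7% and 29.4%. *alg-1*, which encodes the main miRNA Argonaute, fell most, from 14.5 and 13.4 RPM to 5.16 and 4.99 RPM (log2 fold change -1.45 ± 0.12 SE; edgeR adjusted p = 2.53e-12). *henn-1*, the 3′ methyltransferase gene, fell by 0.70 on the log2 scale, *alg-5*, a germline miRNA Argonaute gene, by 0.63, and the RISC component genes *tsn-1* and *vig-1* by 0.61 and 0.55. *xrn-2*, whose exonuclease degrades miRNAs, rose by 0.62, and *dcr-1* (Dicer) and *alg-2* by 0.30 each. mRNA levels of these genes were not analysed here.

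**Figure D5:**
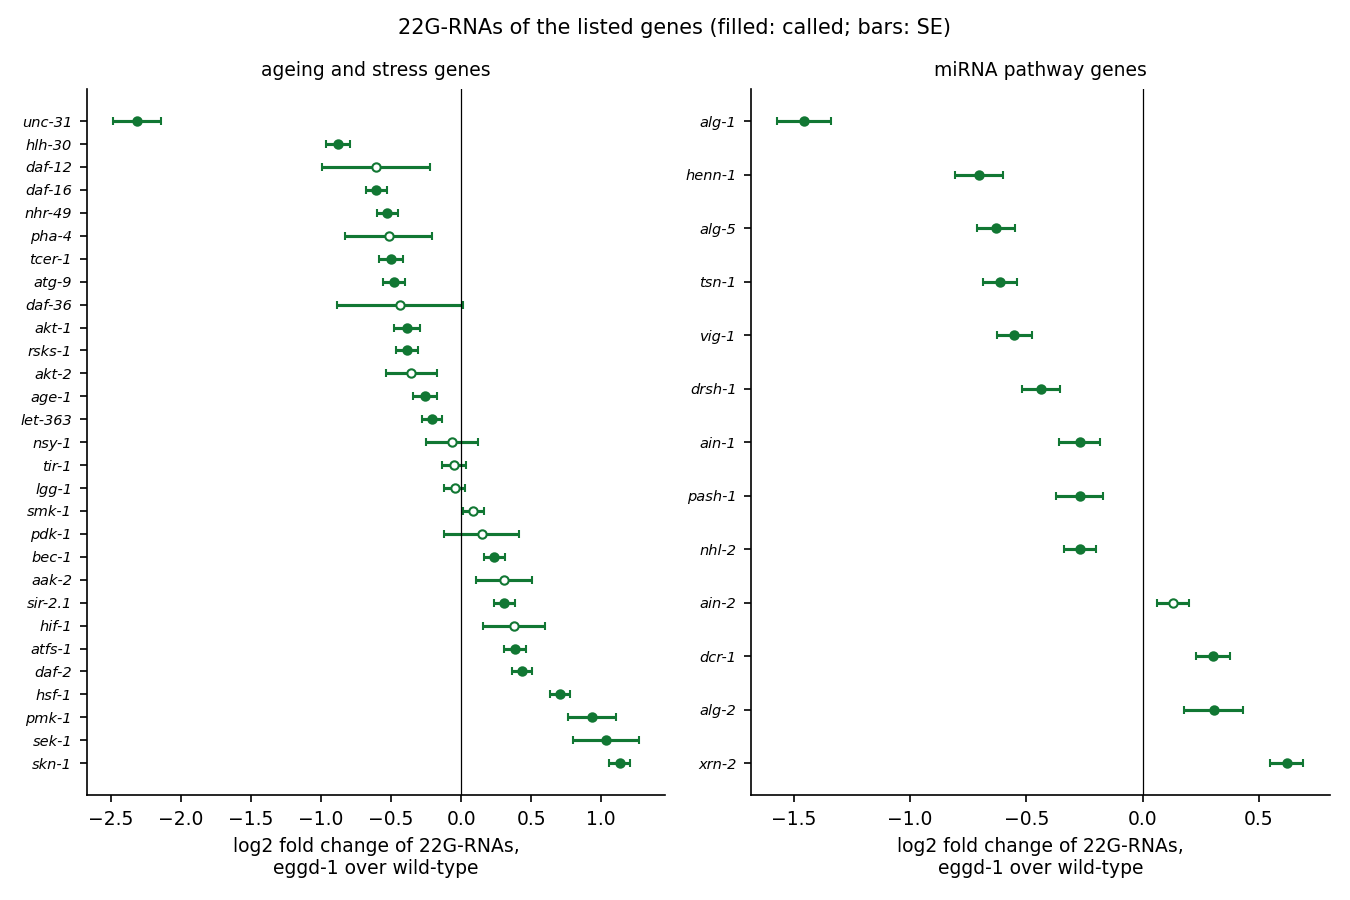
Log2 fold change of 22G-RNAs, *eggd-1* over wild-type, for 29 of the 30 tested ageing and stress genes (left) and the 13 miRNA pathway genes (right), with bars for the SE and filled points for genes called. *unc-31* (-2.32) and *alg-1* (-1.45) lie lowest in their lists, *skn-1* (1.13) and *xrn-2* (0.62) highest.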

How the data were processed

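Worms were compared as 2 untreated wild-type and 2 untreated *eggd-1* libraries, with 1 oxidized library a genotype. The authors trimmed the reads with Trim Galore, removed structural RNAs, mapped what remained with Bowtie, allowing no mismatch, to WormBase WS279, divided each read by its genome locations and by the features it overlapped, and deposited the sums, which are expected counts per feature. The authors also deposited them as RPM, scaled to genome-mapped reads. The ratio of count to RPM gave each library's depth in genome-mapped reads.

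Counts, rounded to whole numbers, entered edgeR 4.0.16 (R 4.3.3, quasi-likelihood test, genotype as the only term, genome-mapped reads as library size, filter for a minimum count of 10) over the 4 untreated libraries, with Benjamini-Hochberg adjustment over the 218 tested miRNA rows or the 11741 genes with 22G-RNAs and calls at an adjusted p below 0.05. The test was checked on simulated data. Rows of hairpins were left out of the tests. Profiles were compared with a pseudocount of 0.1 RPM over dominant arms with a mean of at least 50 counts. Coordinates came from the Ensembl release 115 annotation, in which 353 of 353 miRNA rows had a matching transcript. The replicates of a genotype differed beyond sampling noise, and precision is limited by 2 libraries a group. Poisson intervals cover counting error only. All values of the members were multiples of 0.5 counts.

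The members and all lists were chosen with earlier results of these data known. Named in the text are all members in both arms, the listed ageing miRNAs and markers, the 2 arms closest to each member, and of each gene list the 5 genes with the largest change in each direction among those called, of which 1 gene is not reported here. Alternatives were other library sizes, TMM, DESeq2 1.42.0, other filters, a replicate block, a 2-fold minimum, dominant arms alone, a joint fit of all classes, each library left out, and, chosen after seeing the data, counts doubled to whole reads.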

Additional observations from a re-analysis of the deposited data

Results flagged for a closer look

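Reads of the miR-239a hairpin row that were counted for neither arm stood at 58.7 RPM in the oxidized wild-type library and at 114 RPM in the oxidized *eggd-1* library, above the 29.3 to 47.2 RPM of the untreated libraries. They were singled out because hairpin rows were not used in the tests. RPM is a share of a library, and piRNAs as a class rose more after oxidation on that scale. With 1 oxidized library a genotype the difference was not tested.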

How the results depend on the processing

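Over the members' log2 fold changes, 127 of 159 values under alternatives kept direction and side of the threshold, 18 lost the call, 3 gained it and 11 turned, and of 111 values of other results 85 stayed close and 26 moved. The miRNA rows called lower, 19, were 39 under TMM, 12 with dominant arms alone, 3 with a 2-fold minimum, and 6 to 23 with a library left out (6 without the first wild-type library, 10 without the second and 12 without the second *eggd-1* library). Those called higher, 75, were 23 under TMM, 21 in DESeq2, 26 with a 2-fold minimum, and 24 to 78 with a library left out (28 without the first and 24 without the second wild-type library). With the 2-fold minimum miR-228-5p (log2 fold change 0.76) and miR-246-3p (0.63) were not called, nor in DESeq2 (0.43 and 0.34) or under TMM (0.33 and 0.23). The minor arm miR-71-3p (0.84) also lost its call with the 2-fold minimum. The values that turned were miR-71-5p (TMM -0.15, DESeq2 -0.047), miR-239a-5p (TMM -0.32, DESeq2 -0.22), miR-239a-3p (TMM -0.0075) and miR-239b-3p (TMM -0.32, DESeq2 -0.23). The cause was not tested.

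With a library left out, the log2 fold change ranged from 0.82 to 1.54 for miR-34-5p, from 0.56 to 0.95 for miR-228-5p, from 0.50 to 0.76 for miR-246-3p, from 0.011 to 0.80 for miR-239b-5p and from -0.094 to 0.29 for miR-239a-5p, which turned without the first *eggd-1* library. Among minor arms, miR-34-3p ranged from -0.057 to 0.84 and turned without the first *eggd-1* library, and miR-239b-3p ranged from -0.27 to 0.41 and turned without that library or the first wild-type library. miR-34-3p was called without the second *eggd-1* library, and miR-239a-3p in the joint fit of all classes (0.41). The ratio of the summed members was 0.908 under TMM. With the sum over small RNA classes as library size, 0.990% and 1.35% of the summed members were left after oxidation. In DESeq2 the 22G-RNAs of ageing and stress genes were lower for 7 and those of miRNA pathway genes for 5.

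Replicates of the 2 genotypes share numbers, but nothing states that a number marks a batch, and the differences between replicate 1 and 2 correlated with r = 0.05 across the 218 rows. With the replicate number as a block, 20 rows were lower and 76 higher, and no call of a member changed.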
